A study of Mus musculus with 22 samples.

Results

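The B7 molecules and their close partners on dendritic cells (DCs) are covered here by 8 genes, namely Cd80, Cd86, Icosl, Cd83, Cd274, Pdcd1lg2, Cd276 and Havcr2, which were chosen by name. The choice was made with earlier results of these data known. All 13 probe sets that the array annotation assigns to 1 of these genes alone were taken, out of 45037 probe sets and 18193 genes that were tested. Expression had been measured on Affymetrix arrays in CD11c+CD8α- DCs of the pancreas from female mice of 5 weeks. NOD mice, an inbred strain that develops autoimmune diabetes spontaneously and was pre-diabetic at this age, gave 3 arrays at steady state, 4 after culture with PBS and 4 after culture with lipopolysaccharide (LPS, a bacterial cell wall component that TLR4 senses). C57BL/6 mice, the non-diabetic strain used for comparison, gave 4 arrays at steady state, 4 after PBS culture and 3 after LPS culture. Culture lasted 18 h with either agent, and each array held the RNA of cells pooled from 10 pancreases, so that an array is a pool and not a mouse. The cells of all groups were enriched for CD45 with beads and then sorted by flow cytometry. The sources differ on how the cultures relate to the steady state cells. The deposited design note places them in another experiment, in which case culture and experiment cannot be told apart, whereas the study's methods describe the sorted cells as split between direct lysis and culture. The p-values measure the spread between pools. In sorted bulk RNA, fewer cells of a type and less RNA per cell cannot be told apart.

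A T cell needs a signal through its antigen receptor and a costimulatory signal, and DCs deliver costimulation through B7 proteins. CD80 and CD86 bind CD28, which activates T cells, and CTLA-4, which restrains them, and ICOS ligand (Icosl) binds ICOS. PD-L1 (Cd274) and PD-L2 (Pdcd1lg2) bind the inhibitory receptor PD-1. DCs that mature are known for raising these ligands together with CD40 and CCR7, both in answer to microbial products and, for many isolated DCs, on being taken from tissue and cultured.

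The arrays had medians between 7.63 and 7.68 and lower quartiles between 6.03 and 6.36 on the log2 scale, and arrays of 1 group correlated at 0.984 to 0.997. None of the 11 measured marker genes of CD8α- DCs lay below the lower quartile in any group. The gene of the sorting marker CD11c, Itgax, averaged 10.89 at steady state, 8.93 after PBS and 8.34 after LPS in NOD cells, and 11.32, 9.03 and 8.46 in C57BL/6 cells. Cd8a averaged 7.78 in NOD and 7.56 in C57BL/6 steady state cells, above the lower quartile. A list of 13 macrophage markers averaged 11.21 to 11.46 on the NOD PBS arrays against 12.87 to 13.07 on the NOD steady state arrays, and 11.31 to 11.44 against 13.00 to 13.20 on the C57BL/6 arrays. Of the 13, 9 were called lower and 2 higher after culture in NOD cells, and 10 lower and 2 higher in C57BL/6 cells, and their part in the culture differences of the family was not tested. Vsig4 was the macrophage marker that lay below the lower quartile in culture, at 5.84 in NOD and 5.83 in C57BL/6 PBS cells. The CD8α- DC list averaged 9.04 to 9.26 on PBS against 10.32 to 10.39 on steady state arrays in NOD cells, and 9.27 to 9.37 against 10.25 to 10.37 in C57BL/6 cells, with Cd209a lower by the most (-4.48 in NOD and -4.88 in C57BL/6 cells). Of its 11 measured genes 6 were called lower and none higher in NOD cells, and 5 lower and 5 higher in C57BL/6 cells. Transcripts of pancreatic acinar cells were present at steady state and also lower in culture, with Cela1 at 10.28 in PBS against 13.43 in steady state NOD cells and at 10.29 against 13.71 in C57BL/6 cells. Of 9 measured pancreas markers, 4 were called lower and 2 higher in NOD cells, and 4 lower and 3 higher in C57BL/6 cells, and the list averaged 8.50 to 10.08 on PBS against 9.91 to 10.55 on steady state arrays in NOD cells and 8.30 to 10.01 against 10.06 to 10.29 in C57BL/6 cells. Over all genes, 41.6% were called higher and 30.0% lower after culture in NOD cells, and 44.6% and 32.3% in C57BL/6 cells. The part of these marker lists in the family's culture differences was not tested.

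The sequences just before the start site are shown for 4 members that the results turn on: Cd274 and Pdcd1lg2, which are neighbouring genes with no other gene annotated between them and which were both far higher in culture, and Cd80 and Havcr2, which moved in opposite directions with LPS. Each is the 250 bases before the start in the RefSeq promoter table for GRCm38.p6, written in the direction of the gene. The table held 6 of the 8 members, and Cd86 and Cd83 are named only. Capitals mark matches to an NF-kB consensus of 10 letters, the core of interferon regulatory factor (IRF) elements spelled AANNGAAA, the GAS element spelled TTCNNNGAA, or the AP-1 element spelled TGANTCA, searched on both strands. All 4 lie on the plus strand, Cd274 at chr19:29367188-29367437, Pdcd1lg2 at chr19:29410669-29410918, Cd80 at chr16:38458683-38458932 and Havcr2 at chr11:46454681-46454930.
Cd274: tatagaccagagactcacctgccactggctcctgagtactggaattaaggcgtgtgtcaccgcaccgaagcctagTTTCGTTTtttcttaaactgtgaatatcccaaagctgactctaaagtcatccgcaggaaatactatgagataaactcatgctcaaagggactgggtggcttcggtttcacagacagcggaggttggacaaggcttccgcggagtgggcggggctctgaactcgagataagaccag
Pdcd1lg2: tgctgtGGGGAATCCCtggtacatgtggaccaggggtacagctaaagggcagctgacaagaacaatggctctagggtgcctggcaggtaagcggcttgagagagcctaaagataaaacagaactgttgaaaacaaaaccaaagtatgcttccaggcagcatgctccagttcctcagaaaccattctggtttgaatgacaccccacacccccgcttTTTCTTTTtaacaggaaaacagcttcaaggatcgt
Cd80: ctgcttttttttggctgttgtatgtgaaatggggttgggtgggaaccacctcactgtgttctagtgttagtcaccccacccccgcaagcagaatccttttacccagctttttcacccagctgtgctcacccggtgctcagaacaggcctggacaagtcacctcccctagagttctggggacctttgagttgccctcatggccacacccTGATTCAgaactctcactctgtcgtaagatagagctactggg
Havcr2: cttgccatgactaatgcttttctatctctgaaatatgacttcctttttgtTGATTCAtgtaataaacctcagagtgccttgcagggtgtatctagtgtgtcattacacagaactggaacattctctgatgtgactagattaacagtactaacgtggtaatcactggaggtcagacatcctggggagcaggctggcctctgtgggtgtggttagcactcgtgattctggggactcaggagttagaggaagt

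Cd274 held 1 IRF core match, on the reverse strand, 175 to 168 bases before the start. Pdcd1lg2 held 1 such match 35 to 28 bases before the start and an NF-kB match, which reads as one on both strands, 244 to 235 bases before it. The match in Cd80 and the match in Havcr2 are both AP-1 letters, TGATTCA, which lie 42 to 36 and 200 to 194 bases before the start. Icosl, whose window is not shown, held 1 NF-kB match, and Cd276 held no match to any of the 4 motifs. Of all 32851 windows of this length, 21.3% held an IRF core match, 7.25% an NF-kB match, 7.02% a GAS match and 6.75% an AP-1 match. These are matches of letters, not binding sites. The windows of Cd274 and Cd80 lie inside the annotated span of their genes, because a longer transcript model begins further upstream.

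Culture without LPS gave the largest differences in the family, and adding LPS gave called differences in fewer members. In NOD cells 6 of the 8 genes were higher after PBS culture than at steady state and none was lower, at a Benjamini-Hochberg adjusted p under 0.1 in limma, while 41.6% of all genes were called higher and 30.0% lower. C57BL/6 cells had 6 higher genes and 1 lower gene, Cd83, against 44.6% and 32.3% of all genes. The ligands Cd80, Cd86, Cd274, Pdcd1lg2 and Cd276 and the receptor Havcr2 were called higher in each strain. Since culture changed most genes on the array, the counts alone do not set the family apart, and the differences are given member by member below. The median log2 difference over the 8 genes was 1.08 in NOD cells and 0.88 in C57BL/6 cells, beside 0.16 and 0.17 over all genes. Here and below, medians are of signed differences, in which higher and lower genes offset each other. They describe direction and do not compare the sizes of the differences with those of other genes.

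With LPS added, 2 of the 8 genes were higher in NOD cells (Cd80 and Pdcd1lg2) and 1 was lower (Havcr2), against 1.93% of all genes called higher and 2.46% lower relative to PBS culture. C57BL/6 cells had Cd80 higher and Havcr2 lower, against 0.945% and 0.868% of all genes. When same-numbered arrays were paired through a replicate block, the number of all genes called with LPS in NOD cells was 1893 in place of 800, and in that fit Icosl was a further member called higher. The share of members called with LPS, 3 of 8 in NOD and 2 of 8 in C57BL/6 cells, was above that of all genes, while the share called with culture was near it. Because the members were chosen with earlier results of these data known, the higher share is not a result about the family. The C57BL/6 count was 0 to 2 on leaving out single arrays. The median difference of the 8 genes was 0.01 in NOD and -0.03 in C57BL/6 cells, beside -0.00 and 0.02 over all genes. The culture and LPS differences share the PBS arrays and are given side by side.

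**Figure D1:**
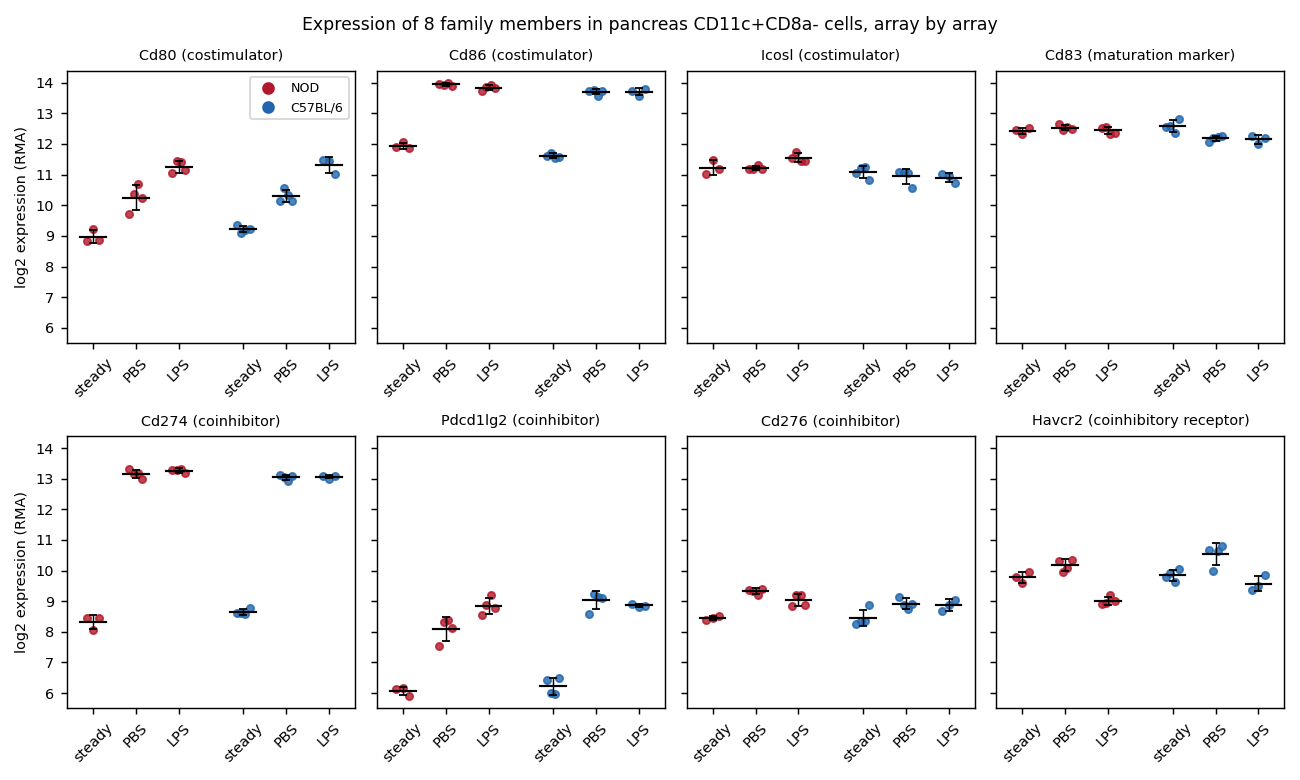
Each point is 1 array (log2 expression, vertical axis) of the probe set with the highest mean for each of the 8 genes, for NOD (left, red) and C57BL/6 (right, blue) cells at steady state, after PBS culture and after LPS culture; lines are means and bars SD over 3 or 4 arrays. Cd274, Cd86 and Pdcd1lg2 sit far higher in all cultured arrays than at steady state, Cd80 steps up with culture and again with LPS, and Havcr2 is lowest after LPS.

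Cd274 encodes PD-L1, the widely expressed ligand of PD-1, and its change with culture was the largest in the family. In NOD cells its log2 expression was 8.44, 8.06 and 8.44 at steady state, 13.31, 13.14, 13.19 and 12.98 after PBS, and 13.29, 13.27, 13.33 and 13.17 after LPS. The C57BL/6 readings were 8.63, 8.60, 8.59 and 8.78 at steady state, 13.12, 13.06, 12.91 and 13.08 after PBS, and 13.09, 13.00 and 13.09 after LPS. Every cultured array thus lay more than 4 log2 units above every steady state array, and the LPS arrays overlapped the PBS arrays. The culture difference was 4.84 in NOD cells (28.6-fold, SE 0.14, adjusted p = 2.72e-10) and 4.40 in C57BL/6 cells (21-fold, SE 0.10, adjusted p = 3.81e-11). The LPS difference was 0.11 in NOD cells, with a 95% interval of -0.12 to 0.34, and 0.02 in C57BL/6 cells, with an interval of -0.24 to 0.27. A rise with LPS of up to 0.34 log2 units in NOD and 0.27 in C57BL/6 cells is thus within these intervals. So is a fall of up to 0.12 in NOD and 0.24 in C57BL/6 cells.

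Pdcd1lg2 encodes PD-L2, a ligand of PD-1 that is largely restricted to DCs and macrophages. At steady state its values were 6.14, 6.15 and 5.91 in NOD cells and 6.42, 6.00, 5.98 and 6.50 in C57BL/6 cells, with 2 arrays of each strain below the lower quartile of their array, so that the starting level was near the floor of the measurement. After PBS culture the NOD values were 7.55, 8.31, 8.39 and 8.11 and the C57BL/6 values 8.59, 9.25, 9.15 and 9.11. Those 2 sets of arrays did not overlap, and replicate 1 was the lowest in each strain. After LPS the strains overlapped, at 8.55, 8.86, 9.19 and 8.79 in NOD cells and 8.91, 8.82 and 8.85 in C57BL/6 cells. The culture difference was 2.02 in NOD cells (SE 0.19, adjusted p = 2.92e-06) and 2.80 in C57BL/6 cells (SE 0.17, adjusted p = 5.54e-08), and as the steady state level was near the floor, its size is uncertain and no fold is given. LPS gave a difference of 0.76 in NOD cells (1.69-fold, SE 0.19, adjusted p = 0.0708) and of -0.17 in C57BL/6 cells (SE 0.16, adjusted p = 0.801). The call in NOD cells was lost on leaving out NOD PBS replicate 1 or 4 or NOD LPS replicate 2, 3 or 4, with differences of 0.58 to 0.78 and adjusted p-values of 0.121 to 0.176.

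CD86 is the B7 costimulator that DCs display early and in quantity. Its probe set with the highest mean read 11.90, 12.05 and 11.86 at steady state, 13.97, 13.93, 13.99 and 13.90 after PBS, and 13.73, 13.87, 13.93 and 13.83 after LPS in NOD cells. The C57BL/6 values were 11.62, 11.72, 11.55 and 11.58 at steady state, 13.74, 13.76, 13.58 and 13.74 after PBS, and 13.74, 13.58 and 13.81 after LPS. As with Cd274, the cultured arrays formed 1 band and the steady state arrays another, with no LPS step. The culture difference was 2.01 in NOD cells (4.03-fold, SE 0.11, adjusted p = 4.25e-08) and 2.09 in C57BL/6 cells (4.25-fold, SE 0.10, adjusted p = 6.87e-09), and the LPS difference was -0.11 in NOD cells (interval -0.32 to 0.10) and 0.01 in C57BL/6 cells (interval -0.26 to 0.27). The other Cd86 probe set did not show the culture step. It averaged 10.75 in PBS culture against 10.70 at steady state in NOD cells and 10.54 against 10.72 in C57BL/6 cells, and the culture differences were 0.05 in NOD (SE 0.14, adjusted p = 0.774) and -0.18 in C57BL/6 cells (SE 0.13, adjusted p = 0.229). The Cd86 result therefore belongs to 1 of 2 probe sets, and the reason they disagree was not tested.

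CD80 is the B7 costimulator with the higher affinity for CD28 and CTLA-4. Cd80 was the member that was higher at both steps in both strains. In NOD cells it read 8.82, 9.21 and 8.87 at steady state, 9.71, 10.38, 10.69 and 10.23 after PBS, and 11.04, 11.44, 11.40 and 11.16 after LPS. In C57BL/6 cells it read 9.34, 9.10, 9.20 and 9.21 at steady state, 10.15, 10.56, 10.35 and 10.13 after PBS, and 11.49, 11.44 and 11.01 after LPS. Within each strain no array of one condition overlapped the next. The culture difference was 1.28 in NOD cells (2.43-fold, SE 0.20, adjusted p = 2.26e-04) and 1.08 in C57BL/6 cells (2.12-fold, SE 0.12, adjusted p = 9.55e-06). The LPS difference was of like size, 1.01 in NOD cells (2.01-fold, SE 0.19, adjusted p = 0.0181) and 1.02 in C57BL/6 cells (2.03-fold, SE 0.16, adjusted p = 0.0395). The C57BL/6 call was lost without PBS replicate 1 or 4 or LPS replicate 2 or 3, at differences of 0.93 to 0.97 and adjusted p-values of 0.116 to 0.132.

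The 3 other Cd80 probe sets moved the same way at each step. Their culture differences were 0.83 to 1.37 in NOD cells and 0.84 to 1.23 in C57BL/6 cells, and all passed the threshold. Their LPS differences were 0.56 to 1.14 in NOD cells and 0.71 to 0.95 in C57BL/6 cells, where the smallest missed the threshold (adjusted p = 0.128). The other members called with LPS, Pdcd1lg2 and Havcr2, each had 1 probe set.

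**Figure D2:**
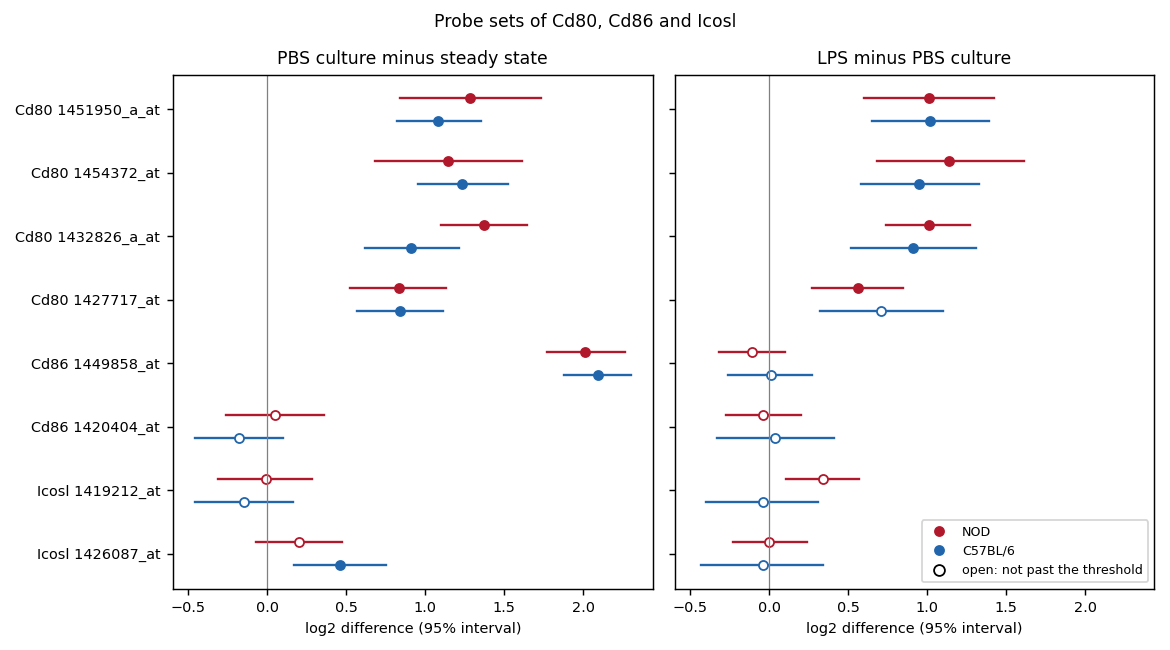
Log2 differences with 95% intervals (horizontal axis) for every probe set of Cd80, Cd86 and Icosl, PBS culture minus steady state on the left and LPS minus PBS culture on the right, with NOD above C57BL/6; filled points passed the threshold. All 4 Cd80 probe sets lie right of 0 in both panels, whereas for culture the intervals of the second Cd86 probe set span 0 in both strains.

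Icosl, the ligand of ICOS on activated T cells, did not follow CD80 and CD86. In NOD cells it read 11.01, 11.49 and 11.17 at steady state, 11.17, 11.19, 11.31 and 11.18 after PBS, and 11.55, 11.75, 11.44 and 11.45 after LPS. In C57BL/6 cells it read 11.06, 11.20, 11.26 and 10.84 at steady state, 11.07, 11.07, 11.05 and 10.57 after PBS, and 11.02, 10.94 and 10.73 after LPS. Only the NOD LPS arrays stood above the PBS arrays of their strain without overlap. The culture differences were -0.01 in NOD cells (SE 0.13, adjusted p = 0.942) and -0.15 in C57BL/6 cells (SE 0.14, adjusted p = 0.368). The LPS difference was 0.34 in NOD cells (SE 0.11, adjusted p = 0.152, which became 0.0951 with same-numbered arrays paired) and -0.04 in C57BL/6 cells (SE 0.16, adjusted p = 0.963). The dimmer Icosl probe set, at 6.76 to 7.71 over all arrays, was higher after culture in C57BL/6 cells by 0.46 (SE 0.13, adjusted p = 0.00886), and its LPS differences were 0.00 in NOD and -0.04 in C57BL/6 cells.

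Cd83, a surface marker of mature DCs that protects CD86 and MHC class II from turnover, was high from the start. The NOD values were 12.44, 12.33 and 12.53 at steady state, 12.65, 12.44, 12.54 and 12.50 after PBS, and 12.53, 12.57, 12.32 and 12.36 after LPS. The C57BL/6 values were 12.56, 12.60, 12.36 and 12.83 at steady state, 12.06, 12.19, 12.22 and 12.26 after PBS, and 12.27, 11.99 and 12.21 after LPS. All cultured C57BL/6 arrays lay below all steady state ones, and the NOD conditions overlapped. Culture gave a difference of 0.10 in NOD cells (SE 0.12, adjusted p = 0.47) and of -0.41 in C57BL/6 cells (1.33-fold lower, SE 0.12, adjusted p = 0.00883), and LPS gave -0.09 in NOD and -0.02 in C57BL/6 cells.

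Cd276 (B7-H3), a family member for which both costimulatory and inhibitory effects on T cells are described, took a small step with culture. It read 8.38, 8.44 and 8.50 at steady state, 9.38, 9.34, 9.20 and 9.40 after PBS, and 8.85, 9.19, 9.20 and 8.88 after LPS in NOD cells. The C57BL/6 readings were 8.27, 8.34, 8.34 and 8.86 at steady state, 9.14, 8.89, 8.73 and 8.92 after PBS, and 8.68, 8.89 and 9.05 after LPS. Replicate 6 of the C57BL/6 steady state cells was the one array of that group among the cultured values. The culture difference was 0.89 in NOD cells (1.85-fold, SE 0.11, adjusted p = 4.2e-05) and 0.47 in C57BL/6 cells (1.39-fold, SE 0.15, adjusted p = 0.0135). The LPS difference was -0.30 in NOD cells (SE 0.12, adjusted p = 0.277) and -0.05 in C57BL/6 cells (SE 0.14, adjusted p = 0.954).

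Havcr2 encodes TIM-3, a receptor of the TIM family with inhibitory functions on T cells that DCs also carry. It was the member that was lower with LPS. In NOD cells it read 9.78, 9.60 and 9.95 at steady state, 10.31, 9.94, 10.09 and 10.36 after PBS, and 8.90, 8.93, 9.20 and 8.99 after LPS. In C57BL/6 cells it read 9.79, 9.93, 9.63 and 10.04 at steady state, 10.67, 10.00, 10.65 and 10.80 after PBS, and 9.37, 9.50 and 9.85 after LPS. The NOD LPS arrays were lower than those of both other NOD conditions, and the C57BL/6 LPS arrays were lower than those of PBS culture. The LPS difference was -1.17 in NOD cells (2.25-fold lower, SE 0.12, adjusted p = 0.00103) and -0.96 in C57BL/6 cells (1.94-fold lower, SE 0.20, adjusted p = 0.0802). The C57BL/6 call was lost on leaving out any of its 7 arrays but PBS replicate 2, at differences of -1.09 to -0.85 and adjusted p-values of 0.115 to 0.26.

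Culture alone left Havcr2 higher by 0.40 in NOD cells (SE 0.14, adjusted p = 0.0291) and by 0.68 in C57BL/6 cells (SE 0.17, adjusted p = 0.00382), with overlap between the groups in each strain. The NOD call was lost without steady state replicate 4, at a difference of 0.31 and an adjusted p of 0.104. Macrophages carry TIM-3 as well, and 6 of the 13 macrophage markers were lower with LPS in NOD cells and 3 in C57BL/6 cells, beside 2.46% and 0.868% of all genes. The list averaged 11.03 to 11.12 on LPS against 11.21 to 11.46 on PBS arrays of NOD cells, and 11.05 to 11.17 against 11.31 to 11.44 in C57BL/6 cells. The part of these markers in the Havcr2 difference was not tested.

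**Figure D3:**
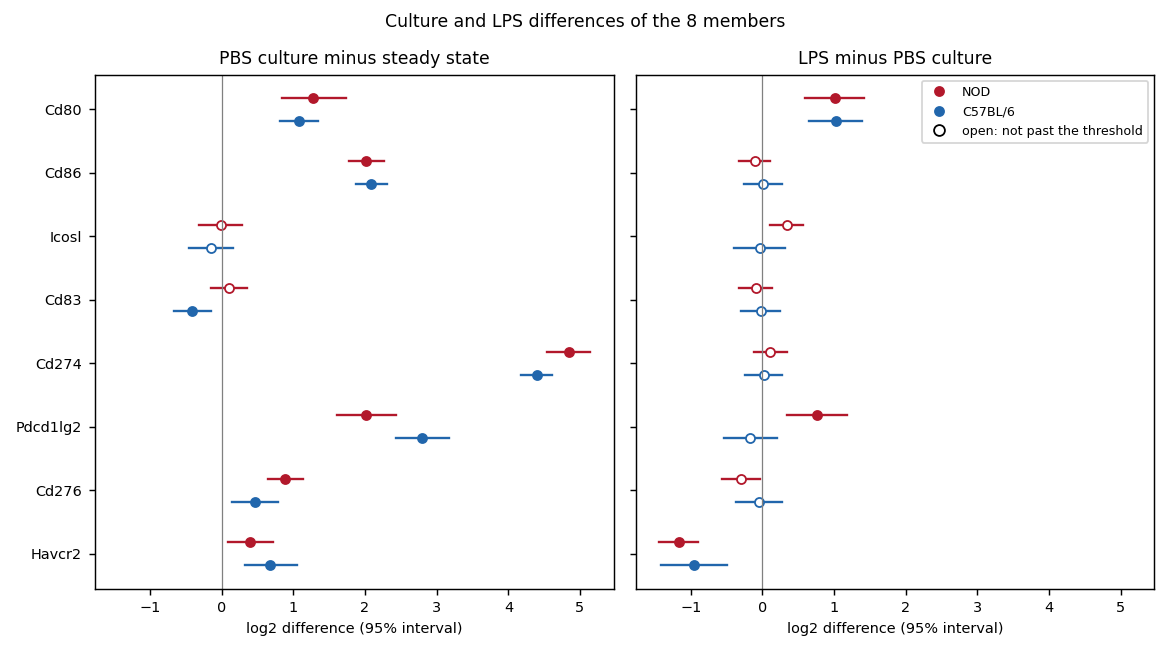
Log2 difference with its 95% interval (horizontal axis) of each of the 8 genes for PBS culture minus steady state (left) and LPS minus PBS culture (right), with NOD above C57BL/6; filled points passed the threshold. Culture differences run up to 4.84 for Cd274 in NOD cells, whereas LPS differences stay between -1.17 for Havcr2 and 1.02 for Cd80.

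The strains shared most of this course and differed in parts of it. At steady state 1 of the 8 genes was higher in NOD than in C57BL/6 cells, and none was lower, against 6.87% of all genes called higher and 8.35% lower. In PBS culture 2 were higher and 1 was lower (5.43% and 5.28% of all genes), and in LPS culture 1 was higher and 1 was lower (5.21% and 5.43% of all genes). The median difference of the 8 genes was -0.11 at steady state, 0.17 in PBS and 0.14 in LPS culture, beside 0.03, 0.04 and 0.01 over all genes. In the reported fits no member was called in more than 1 of the 3 conditions. With the replicate block Havcr2 was called in both PBS and LPS culture. Cd86 kept its steady state call and was also called in PBS culture in 2 alternative fits. These were 1 fit of all 22 arrays (0.24, adjusted p = 0.0797) and a fit with a trended robust spread (0.24, adjusted p = 0.0319).

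At steady state the called gene was Cd86, at 11.93 ± 0.10 in NOD and 11.62 ± 0.07 in C57BL/6 cells (SD, n = 3 and 4), a difference of 0.31 (SE 0.10, adjusted p = 0.0638). The call did not survive pairing of same-numbered arrays (0.29, adjusted p = 0.11), nor the omission of NOD steady state replicate 4 or 6 or C57BL/6 steady state replicate 1, 5 or 6 (0.26 to 0.35, adjusted p-values of 0.118 to 0.182), and the other Cd86 probe set gave -0.02 (adjusted p = 0.934). With the mean over both probe sets Cd86 gave 0.15 and was not called (adjusted p = 0.222). Cd274 was at 8.32 in NOD and 8.65 in C57BL/6 cells with no overlap, a difference of -0.33 (SE 0.12, adjusted p = 0.107) that passed the threshold with the block (-0.35, adjusted p = 0.0666). It also passed in 1 fit of all 22 arrays, with the mean over probe sets, without the dimmer 50% of probe sets and with 1 probe set per gene. The adjusted p-values there were 0.0555 to 0.0967. Without NOD steady state replicate 1 it passed as well (-0.40, adjusted p = 0.0778). For Cd80 the probe set with the highest mean gave -0.24 (adjusted p = 0.235), and 1 of the 3 others, at 7.90 in NOD and 8.43 in C57BL/6 cells, differed by -0.53 (SE 0.10, adjusted p = 0.00747). With the mean over all its probe sets Cd80 was called lower in NOD cells (-0.28, adjusted p = 0.0328).

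In PBS culture Pdcd1lg2 was lower in NOD cells, at 8.09 ± 0.38 against 9.03 ± 0.29 in C57BL/6 cells (SD, n = 4 each), a difference of -0.94 (1.91-fold lower, SE 0.20, adjusted p = 0.0154). Cd83 was higher in NOD cells, at 12.53 against 12.18, by 0.35 (SE 0.11, adjusted p = 0.0722), and so was Cd276, at 9.33 against 8.92, by 0.41 (SE 0.12, adjusted p = 0.0662). Neither of these small differences showed overlap between the strains. The Cd83 call was lost without NOD PBS replicate 1, 3 or 4 or C57BL/6 PBS replicate 1, 2 or 3 (0.31 to 0.37, adjusted p-values of 0.108 to 0.175), and the Cd276 call without NOD PBS replicate 1, 2 or 4 or C57BL/6 PBS replicate 2, 3 or 4 (0.34 to 0.41, adjusted p-values of 0.117 to 0.154). Havcr2 differed by -0.35, with an adjusted p of 0.314 without and 0.0889 with the replicate block. The Cd86 probe set with the highest mean differed by 0.24 with no overlap (SE 0.10, adjusted p = 0.224), and the other by 0.21 with overlap (adjusted p = 0.481).

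In LPS culture Icosl was higher in NOD cells, at 11.55 ± 0.14 against 10.90 ± 0.15 in C57BL/6 cells (SD, n = 4 and 3), by 0.65 (1.57-fold, SE 0.13, adjusted p = 0.0137). The dimmer Icosl probe set differed by -0.05 (adjusted p = 0.931), and the mean over both probe sets by 0.30 (adjusted p = 0.141). Havcr2 was lower in NOD cells, at 9.01 against 9.57, with a difference of -0.57 (SE 0.14, adjusted p = 0.0432). That call was lost without C57BL/6 LPS replicate 4 (-0.43, adjusted p = 0.132) or NOD LPS replicate 2 (-0.54, adjusted p = 0.111).

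**Figure D4:**
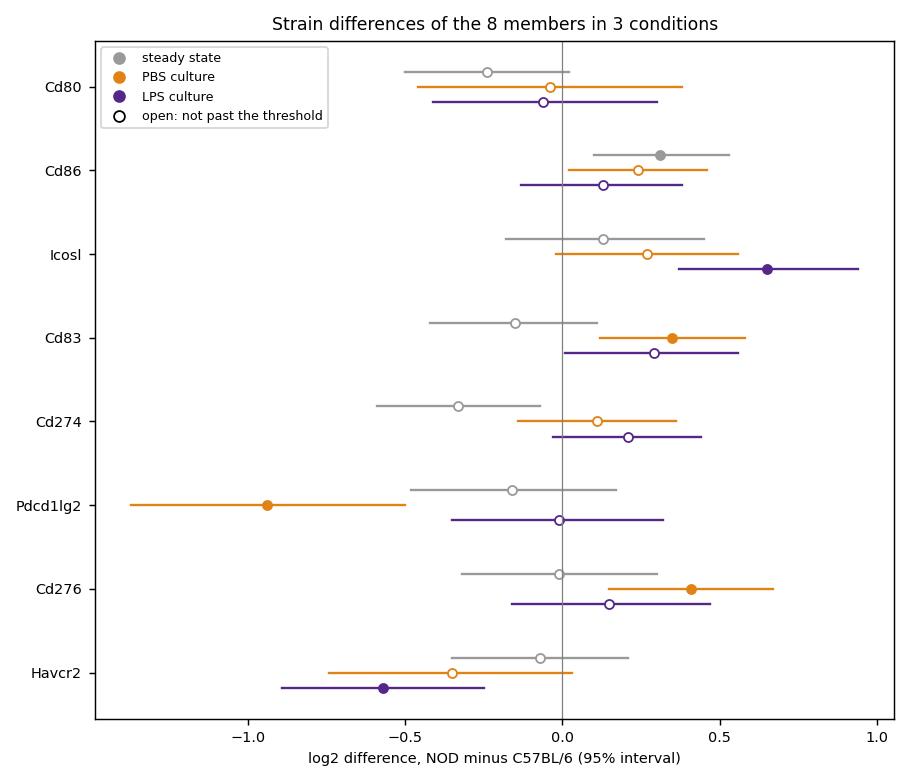
Log2 difference with its 95% interval, NOD minus C57BL/6 (horizontal axis), of each of the 8 genes at steady state (grey), in PBS culture (orange) and in LPS culture (purple); filled points passed the threshold. Pdcd1lg2 stands out at -0.94 in PBS culture and lies at -0.01 in LPS culture.

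Whether the strains answered culture or LPS differently was tested directly as an interaction. For LPS, 0.0220% of all genes were called and no member was, and for culture 7.81% of all genes and 1 member. The LPS difference of Pdcd1lg2 was larger in NOD cells by 0.92 (SE 0.27, 95% interval 0.35 to 1.50), with an adjusted p of 0.951 over all probe sets, and this became 1.07 (adjusted p = 0.0792) when replicate numbers were a block within each strain. That block takes C57BL/6 PBS replicate 1, the lowest of its group at 8.59, out of the difference. No C57BL/6 LPS array has its number. For Cd80 the strains' LPS differences differed by -0.01 (interval -0.58 to 0.56) and for Havcr2 by -0.21 (interval -0.72 to 0.30). Strain differences within these intervals are not excluded. The member called for culture was Cd83, whose culture difference was higher in NOD cells by 0.51 (SE 0.16, adjusted p = 0.0779). The call was lost without NOD steady state replicate 1, 4 or 6, C57BL/6 steady state replicate 1, 4 or 6, NOD PBS replicate 1 or 3, or C57BL/6 PBS replicate 1 or 2, at differences of 0.43 to 0.56 and adjusted p-values of 0.103 to 0.204, and with a replicate block within each strain, where only 2 numbers are shared (0.61, adjusted p = 0.34). The culture difference of Cd274 was larger in NOD cells by 0.44 (interval 0.10 to 0.78, adjusted p = 0.148), and that of Pdcd1lg2 was smaller, at -0.78 (interval -1.35 to -0.21, adjusted p = 0.129), a value that rests on the steady state level near the floor.

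Markers of other cells also differed between the strains. Of all genes, NOD cells had 6.87% higher and 8.35% lower at steady state. The shares were 5.43% and 5.28% in PBS culture, and 5.21% and 5.43% in LPS culture. Of 8 plasmacytoid DC markers, 4 were higher and 1 lower in NOD cells at steady state, where the list averaged 10.29 to 10.35 on NOD and 9.85 to 10.04 on C57BL/6 arrays and Siglech was at 11.88 in NOD and 10.21 in C57BL/6 cells. Of 9 natural killer and innate lymphoid markers, NOD cells had 8 lower at steady state, 5 in PBS culture and 5 in LPS culture, and the list averaged 8.92 to 9.73 on NOD against 9.92 to 10.58 on C57BL/6 arrays in PBS culture. The 6 measured monocyte and neutrophil markers averaged 10.24 to 10.73 on NOD and 11.47 to 11.69 on C57BL/6 arrays in LPS culture, with 3 called lower and 1 higher. No marker of these 3 lists lay below the lower quartile of the arrays. The part of these cells in the strain differences of Cd86, Pdcd1lg2, Icosl and Havcr2 was not tested.

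The receptors and partners of the family were read from gene lists. Of the 5 receptors, Pdcd1 (PD-1) was higher after culture by 1.91 in NOD and 1.45 in C57BL/6 cells, and Cd28 was lower, at -0.69 in each. Icos was also lower after culture, at -1.39 in NOD and -0.80 in C57BL/6 cells, while Ctla4 gave 0.20 and -0.09 without passing the threshold. Rgmb, a further binding partner of PD-L2, was lower in NOD cells (-0.42) and gave -0.16 in C57BL/6 cells (adjusted p = 0.442). With LPS in NOD cells, Pdcd1 was lower (-0.55, adjusted p = 0.0312) and Icos higher (0.67, adjusted p = 0.0874), and no receptor was called in C57BL/6 cells. The TIM-3 ligands went apart in culture: Lgals9, which encodes galectin-9, was higher by 2.22 in NOD and 2.05 in C57BL/6 cells, and Ceacam1 fell by 1.00 in NOD and by 1.18 in C57BL/6 cells.

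Among 14 measured genes of related B7, butyrophilin-like, nectin and TIM families, 7 were higher and 6 lower after culture in NOD cells, and 8 were higher and 5 lower in C57BL/6 cells. The shares of all genes were 41.6% higher and 30.0% lower in NOD cells, and 44.6% and 32.3% in C57BL/6 cells. Vsir, which encodes the B7-like inhibitory ligand VISTA, ran opposite to Cd274, with culture differences of -2.77 in NOD (adjusted p = 9.76e-09) and -2.83 in C57BL/6 cells (adjusted p = 1.81e-09). Btla, an inhibitory receptor that binds HVEM, was at -2.61 in NOD and -1.94 in C57BL/6 cells, and Cd226 was at -1.84 in NOD and -1.37 in C57BL/6 cells, all called lower. The nectin-family ligands Pvr and Nectin2, which bind the receptors CD226 and TIGIT, were higher by 1.53 and 1.75 in NOD and by 2.04 and 1.29 in C57BL/6 cells. Timd4, a phosphatidylserine receptor of macrophages that stands on the macrophage list too, was lower, at -2.23 in NOD and -1.56 in C57BL/6 cells. With LPS, Pvr was higher (0.46, adjusted p = 0.0579) and Timd4 lower (-0.62, adjusted p = 0.0608) in NOD cells, and none of the 14 was called in C57BL/6 cells. Havcr1, another TIM gene, gave 0.07 after culture in NOD cells and 1.19 in C57BL/6 cells, with an interaction of -1.12 (adjusted p = 0.00157).

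Of 8 genes that act on the surface stay of CD86 and PD-L1, 2 were higher and 5 lower after culture in NOD cells, and 2 were higher and 4 lower in C57BL/6 cells. Among all genes 41.6% were higher and 30.0% lower in NOD cells, and 44.6% and 32.3% in C57BL/6 cells. Cmtm6, whose product keeps PD-L1 from lysosomal degradation, was lower, at -0.69 in NOD and -0.65 in C57BL/6 cells, and Stub1, an E3 ligase, fell by 1.00 in NOD and by 1.08 in C57BL/6 cells. Cmtm4, a relative of Cmtm6, was lower (-0.80 in NOD and -0.90 in C57BL/6 cells), and Hip1r was higher by 0.65 in NOD and 0.61 in C57BL/6 cells. Marchf1, the E3 ligase that removes CD86 and MHC class II from the surface, was lower in NOD cells (-0.36, adjusted p = 0.0231) and gave -0.11 in C57BL/6 cells (adjusted p = 0.333). None of the 8 was called with LPS in either strain.

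Interferon gamma and JAK-STAT signalling is the classical inducer of PD-L1, and NF-kB is a classical inducer of CD80 and CD86 downstream of TLR4. Of 11 measured interferon and JAK-STAT genes, 8 were higher and 1 lower after culture in both strains, with a median difference of 0.99 in NOD and 0.92 in C57BL/6 cells, and none was called with LPS. Of all genes, culture had 41.6% higher and 30.0% lower in NOD cells, and 44.6% and 32.3% in C57BL/6 cells. Stat2 was higher by 3.21 in NOD and 3.33 in C57BL/6 cells, Socs1 by 2.11 and 2.77, and Irf1, the factor that mediates induction of PD-L1, by 1.86 and 1.63. The receptor chain Ifngr1 was the 1 lower gene, at -2.41 in NOD and -2.18 in C57BL/6 cells.

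The 9 measured NF-kB and LPS receptor genes held 7 higher and 1 lower gene after culture in NOD cells and 6 higher and 2 lower genes in C57BL/6 cells. All genes together had 41.6% higher and 30.0% lower in NOD cells, and 44.6% and 32.3% in C57BL/6 cells. The subunits Nfkb2, Rel and Relb were higher by 2.04, 1.97 and 1.95 in NOD cells and by 1.63, 1.88 and 1.63 in C57BL/6 cells, and the TLR adaptor Myd88 by 1.23 in NOD and 0.58 in C57BL/6 cells. With LPS, Nfkb2 was higher by 0.48 in NOD cells (adjusted p = 0.0437) and gave 0.45 in C57BL/6 cells (adjusted p = 0.139), and Tlr4 was lower in NOD cells (-0.74, adjusted p = 0.0426) and in C57BL/6 cells (-0.77, adjusted p = 0.0517). Cd14, the LPS co-receptor, was higher by 0.74 after culture in NOD cells and lower in C57BL/6 cells (-0.84), and in PBS culture it was 1.66 higher in NOD than in C57BL/6 cells (adjusted p = 1.29e-04). With LPS Cd14 was the 1 gene of this list called higher in C57BL/6 cells.

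**Figure D5:**
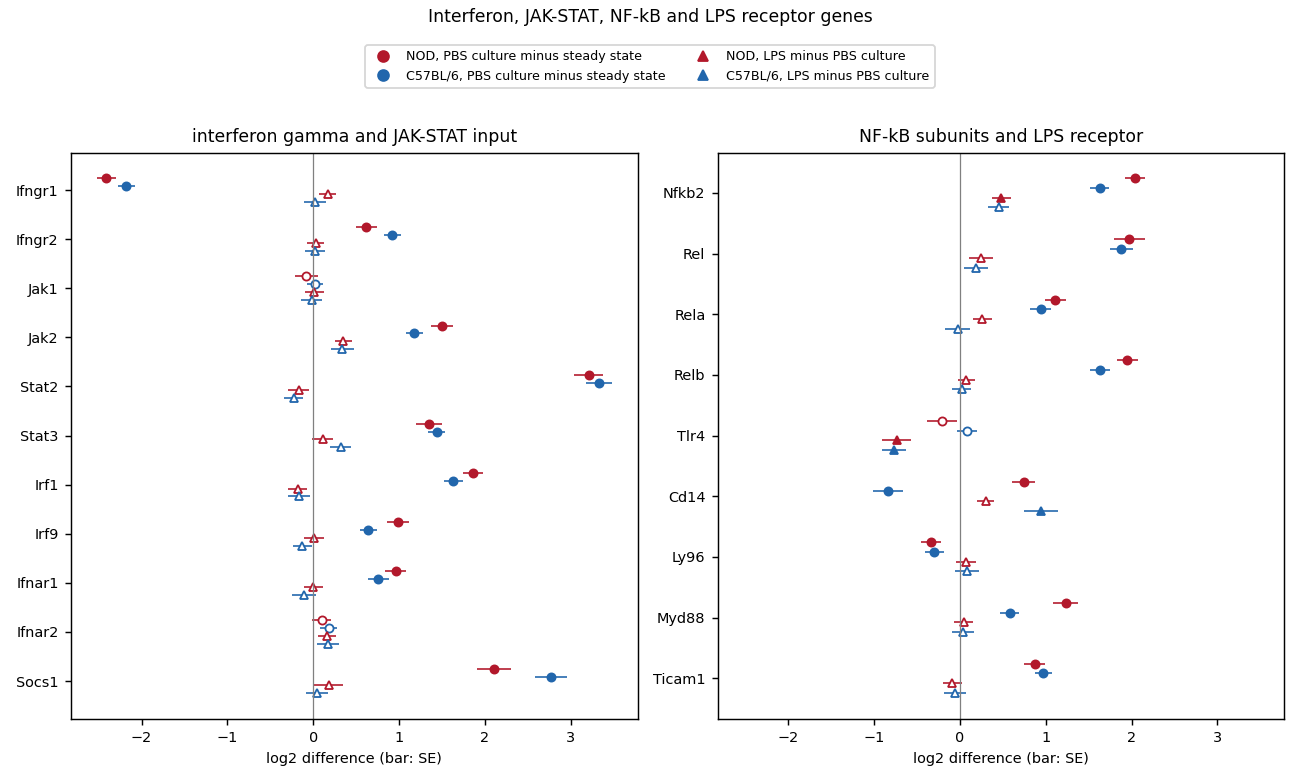
Log2 differences with SE (horizontal axis) of the measured interferon and JAK-STAT genes (left) and NF-kB and LPS receptor genes (right) for PBS culture minus steady state (circles) and LPS minus PBS culture (triangles), NOD in red and C57BL/6 in blue; filled symbols passed the threshold. Culture differences reach 3.33 for Stat2 in C57BL/6 cells, and of the LPS differences those of Nfkb2, Tlr4 and Cd14 hold the filled ones.

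After culture all 6 measured TNF family costimulators were higher in NOD cells and 4 in C57BL/6 cells, beside 41.6% and 44.6% of all genes. They were led by Tnfsf4 (OX40 ligand) at 4.97 in NOD and 3.94 in C57BL/6 cells and by Cd40 at 2.85 and 2.08. Tnfsf9 was at 1.18 in NOD and, short of the threshold, at 0.33 in C57BL/6 cells, and Tnfsf8 was higher by 0.63 in NOD and 0.92 in C57BL/6 cells. With LPS, Tnfsf4 was lower in NOD cells (-0.85, adjusted p = 0.00658) and Tnfsf9 (4-1BB ligand) was higher by 1.15 (adjusted p = 0.00279), while none was called in C57BL/6 cells. Of 16 measured maturation genes, 10 were higher and 4 lower after culture in NOD cells and 11 higher and 4 lower in C57BL/6 cells. The shares of all genes called lower were 30.0% in NOD and 32.3% in C57BL/6 cells, beside the shares called higher given above. Ccr7, the lymph node homing receptor, was at 4.22 in NOD and 4.13 in C57BL/6 cells. Cd200 was at 4.42 in NOD and 4.97 in C57BL/6 cells, Il15ra, which presents interleukin-15 to lymphocytes, at 4.08 and 4.39, and Tmem176a at -3.37 and -2.86. With LPS 5 of the maturation genes were higher in NOD cells and 1 in C57BL/6 cells, beside 1.93% and 0.945% of all genes. Ebi3, a subunit of the IL-12 cytokine family, was the maturation gene called higher with LPS in both strains, by 0.99 in NOD (adjusted p = 0.00895) and 0.94 in C57BL/6 cells (adjusted p = 0.0198). Its culture differences were -0.66 in NOD and -0.43 in C57BL/6 cells.

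As a description over the 22 arrays, which share the strain, culture and LPS groups, the genes with the pattern most like each member were listed by Pearson correlation. Cd274 was nearest to Acod1 (r = 0.999), Isg20 (0.999) and Cxcl10 (0.998), and Cd86 to Cfb (0.996), Lipg (0.996) and Batf2 (0.995). Pdcd1lg2 was nearest to Gstt1 (0.977), Ido1 (0.975) and Tnfrsf9 (0.975). Cd80, with its LPS step, was nearest to Cish (0.977), Ikzf4 (0.973) and Lif (0.971), and Havcr2 to Mfsd12 (0.925), Slc37a2 (0.901) and Loxl3 (0.878). The nearest gene was less alike for Cd276 (Fbxo7, 0.907), Cd83 (Snx19, 0.840) and Icosl (Cilk1, 0.796), whose levels varied least. Within the family the highest correlations were those of Cd86 with Cd274 (0.98) and of Cd274 with Pdcd1lg2 (0.95), and Havcr2 correlated with Cd274 at 0.00 and with Icosl at -0.65.

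The order of the 6 groups by mean differed between the members. For Cd80 the order was C57BL/6 LPS, NOD LPS, C57BL/6 PBS, NOD PBS, C57BL/6 steady state and NOD steady state, with overlap inside each condition and none between conditions. For Cd86 and Cd274 the 4 cultured groups came first and overlapped with their neighbours, and the steady state groups came last without overlap. For Havcr2 PBS culture of C57BL/6 cells came first and LPS culture of NOD cells last, and only this last group was clear of its neighbour. For Pdcd1lg2 NOD PBS culture stood clear between the other cultured groups and both steady state groups, which overlapped. For Cd83 the only break was between NOD steady state and C57BL/6 PBS culture, and for Icosl and Cd276 every group overlapped the next. The ranges of group means were 4.95 log2 units for Cd274, 2.96 for Pdcd1lg2, 2.34 for Cd80, 2.33 for Cd86, 1.52 for Havcr2, 0.89 for Cd276, 0.65 for Icosl and 0.43 for Cd83.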

How the data were processed

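RNA of sorted cells was amplified and hybridised to Affymetrix mouse genome arrays. The authors normalised them with RMA in BRB-ArrayTools and deposited 1 log2 value per probe set and array. The version and genome build are not given in the sources used here. RMA brings all arrays to 1 distribution, so that a shift shared by most genes would not show. Of 45101 probe sets, 64 control sets were left out and 45037 were tested; 34945 name 1 gene, 932 several, and 9160 are unnamed here. A gene was given by the probe set with the highest mean over 22 arrays.

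The tests were made in R 4.3.3 with limma 3.58.1, each on the arrays of the groups compared, with Benjamini-Hochberg adjustment over all probe sets and a threshold of 0.1. SE is the moderated standard error, and groups of 3 or 4 arrays limit precision. The members and 18 further gene lists were chosen with earlier results of these data known. All 8 members with all their probe sets are named, and from each pathway list up to 4 genes with the largest called culture difference in NOD cells. Other genes were chosen after their values were seen. Promoter windows came from RefSeq. The script was tested on simulated data.

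Replicate numbers were checked as pairs: deviations of same-numbered arrays from their group means correlated at 0.241 to 0.487 between LPS and PBS in NOD cells, 0.259 to 0.423 in C57BL/6 cells and 0.109 to 0.433 between strains. Same-numbered arrays were read as pairs there, but the reported fits did not pair them. Pairing entered only through the replicate block, which was an alternative fit. Steady state and PBS culture share only 2 numbers, which correlated at 0.0996 and 0.277 in NOD and at 0.177 and -0.0328 in C57BL/6 cells. These were not read as pairs, since the sources do not settle whether they mark split sorts. Alternatives were a threshold of 0.05, testing the brighter 50% of probe sets alone, 1 model over all 6 groups, centring arrays on their medians, a trended robust spread, other rules for the probe sets of a gene, the replicate block and leaving out each array.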

Additional observations from a re-analysis of the deposited data

Results flagged for a closer look

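In 5 of the 52 sets of 4 arrays tested, 1 array stood apart from the other 3 by Dixon's criterion, which chance alone gives in about 1 of 20 sets. The ratios of gap to range were 0.865 for Cd86 in C57BL/6 PBS replicate 3 (13.58, against 13.74 to 13.76 in the others), 0.842 for Icosl in NOD PBS replicate 3 (11.31, against 11.17 to 11.19) and 0.962 for Icosl in C57BL/6 PBS replicate 4 (10.57, against 11.05 to 11.07). They were 0.834 for the dimmer Icosl probe set in NOD PBS replicate 2 (7.57, against 7.27 to 7.32) and 0.87 for Cd276 in C57BL/6 steady state replicate 6 (8.86, against 8.27 to 8.34). Cd83 differed between the strains in its culture difference, which was 0.10 in NOD and -0.41 in C57BL/6 cells, by 0.51 in the limma interaction (adjusted p = 0.0779).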

How the results depend on the processing

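Of 1228 refits of a member's difference, 1151 kept their side of the threshold, 55 fell below it and 22 passed it; no called difference changed direction, and 40 that were past the threshold in neither fit changed sign. Leave-one-out fits made up 45 of the 55 losses. Centring the arrays changed no call, but their medians already lay between 7.63 and 7.68, so this alternative could move little. Its 72 refits are among the 1151. In the counts of member genes called, an adjusted p under 0.05 gave 1 in place of 2 for LPS in C57BL/6 cells, 0 in place of 1 for the strains at steady state, 1 in place of 3 in PBS culture and 0 in place of 1 for strain by culture. The strains at steady state gave 2, of which 1 was higher and 1 lower, without the dimmer 50% of probe sets (where Pdcd1lg2 was not tested, as in the comparisons with culture), with 1 fit of all 22 arrays and with 1 probe set per gene. The mean of all sets of a gene also gave 2, but both were lower in NOD cells. These were Cd80 (-0.28, adjusted p = 0.0328) and Cd274 (-0.33, adjusted p = 0.0747), and Cd86 was not called. The replicate block kept the count at 1, with Cd274 lower in place of Cd86 higher. The mean over probe sets gave 1 in place of 2 for the strains in LPS culture, and it and the 22-array fit each gave 3 for strain by culture. With the replicate block, strain by LPS gave 1 in place of 0 member genes and strain by culture 0 in place of 1 (Cd83 at 0.61, adjusted p = 0.34). The block gave 1893 in place of 800 genes called for LPS in NOD cells, 9 in place of 4 for strain by LPS and 305 in place of 1420 for strain by culture, where 2 numbers are shared and the sources do not settle whether they pair the arrays; beyond the calls given with the results it changed no other call of a member. Among all genes, leaving out the dimmer 50% of probe sets gave 8028 in place of 13033 for culture in NOD and 8444 in place of 13992 in C57BL/6 cells, with fewer genes tested. LPS gave 499 in NOD and 143 in C57BL/6 cells at 0.05, 1272 and 897 in the 22-array fit, 1263 and 500 with the mean over probe sets, and 546 in C57BL/6 cells (main count 330) with a trended robust spread. Strain by LPS gave 9 in the 22-array fit. Leaving out 1 array gave counts of member genes of 2 to 3 for LPS in NOD, 0 to 2 for LPS in C57BL/6, 0 to 2 for the strains at steady state, 1 to 2 in PBS culture, 1 to 2 in LPS culture and 0 to 2 for strain by culture, and counts of all genes of 447 (without NOD PBS replicate 4) to 780 for LPS in NOD, 49 (without C57BL/6 PBS replicate 1) to 319 for LPS in C57BL/6, 1852 to 3571 for the strains at steady state, 1230 to 1871 in LPS culture, 932 to 1450 for strain by culture and 2 to 6 for strain by LPS.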
